A study of Mus musculus with 6 samples.

Results

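The genes described here were 9 genes of heme synthesis and iron uptake: Tfrc, Slc25a37, Alas1, Alas2, Alad, Urod, Cpox, Ppox and Fech. A probe set, the group of probes that reads 1 stretch of a transcript on the array, was assigned to a gene when its annotation gave that gene as its only symbol. The 9 genes held 47 probe sets of the 90788 deposited, and were 9 of the 16523 genes that could be named in this way. They were measured in ETV2::GFP+FLK1+CD41- cells of mouse embryos, sorted at embryonic day (E)7.5 for 3 arrays and at E8.5 for another 3, with 50 cells per array. The embryos of both stages carried the ETV2::GFP transgenic reporter, in which GFP marks cells expressing Etv2, an ETS transcription factor of endothelial and blood specification. The paper describes matings of males of this line with ICR females, or of this line with Runx1b::rfp mice. It does not say which mating gave the cells on the arrays. FLK1 is the VEGF receptor encoded by Kdr, and CD41 is the integrin encoded by Itga2b that appears on cells entering the blood lineage. The labels give only the stage of the cells. Because the paper places the E8.5 cells in the embryo proper and the E7.5 cells outside it, stage and site cannot be told apart. It also describes the sorted population as heterogeneous.

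Heme is made in a chain of reactions that starts and ends in the mitochondrion and passes through the cytosol in between. Iron reaches the cell on transferrin, which is taken up by the transferrin receptor, and is carried across the inner mitochondrial membrane to be inserted into the porphyrin ring in the last step. All cells make some heme, and erythroid cells make it in bulk for hemoglobin, through an erythroid form of the first enzyme that is a known target of GATA1.

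The stretches upstream of the start sites were read because GATA factors are the textbook regulators of the erythroid forms of these genes. In RefSeq (GRCm38.p6), 7 of the 9 genes matched a promoter entry, with 10 start sites in all, and the 250 bases before each start were searched on both strands. The GATA words searched were AGATAA and AGATAG together with TGATAA and TGATAG, and at least 1 of them stood in 2 of the 10 windows, against 26.5% of 32851 windows of all genes. These were the windows of Alas2 and Cpox, printed here 5' to 3' on the plus strand, along which both genes run, with the GATA words in capitals.
Alas2 (chrX:150547167-150547416): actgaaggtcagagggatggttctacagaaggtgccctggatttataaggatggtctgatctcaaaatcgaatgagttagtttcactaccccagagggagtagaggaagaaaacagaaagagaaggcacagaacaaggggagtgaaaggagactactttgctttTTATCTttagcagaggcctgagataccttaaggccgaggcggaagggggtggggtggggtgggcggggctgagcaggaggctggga
Cpox (chr16:58669958-58670207): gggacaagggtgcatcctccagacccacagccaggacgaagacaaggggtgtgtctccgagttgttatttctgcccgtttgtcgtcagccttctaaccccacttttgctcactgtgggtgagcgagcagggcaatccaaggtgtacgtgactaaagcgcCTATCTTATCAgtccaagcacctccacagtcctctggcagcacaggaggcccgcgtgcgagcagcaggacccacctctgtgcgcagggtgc
In Alas2 the word TTATCT, which is AGATAA on the opposite strand, lay 86 to 81 bases before the start. In Cpox the words CTATCT (91 to 86 bases before the start) and TTATCA (86 to 81) shared 1 base. The KLF1 word CCNCNCCCN, named for an erythroid zinc-finger activator, stood in 7 of the 10 windows, belonging to 4 of 7 genes, against 45.8% of all windows. The windows of genes with more than 1 start, Tfrc, Alas1 and Alad, overlap in part and are not independent. A word match is a description of these letters only, and no binding was measured.

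The values given below are log2 signals, so that a difference of 1 is a 2-fold difference, and the value of a gene on an array is the median of its probe sets. Differences are E8.5 minus E7.5, so that a negative log2 fold change is a lower signal at E8.5. Each was tested with limma across all 16523 genes and adjusted by Benjamini-Hochberg, with a threshold of 0.05. Levels are compared between arrays for the same gene, never between genes.

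None of the 9 genes passed the threshold, where 0.109% of all genes did (18 of 16523). At an unadjusted p under 0.05, 1 of the 9, Tfrc, was lower at E8.5, against 4.68% of all genes. Tfrc was also the only gene whose stage means differed by over 2-fold, in the direction of a lower signal at E8.5 (4.79% of all genes). Without E7.5 replicate 2 Fech was over 2-fold lower in its place, and without E8.5 replicate 1 no gene was. None was over 2-fold higher (2.72% of all genes). For 7 of the 9 the log2 fold change was negative, against 49.5% of all genes, and the median over the 9 was -0.23 against 0.0035 over all genes. The 7 include Alad at -0.0042, and the tally depended on how a gene was summarised. It was 5 of 9 with the mean over probe sets and 5 of 9 without E7.5 replicate 2, 3 of 9 with the brightest probe set of each gene (median 0.14), and 3 of 7 with probe sets of above-median signal (median 0.11). In no gene did the 3 arrays of E8.5 lie wholly below or wholly above those of E7.5, where 7.12% and 7.1% of all genes did so. In a sorted population, fewer cells of a type and less RNA per cell cannot be told apart.

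**Figure D1:**
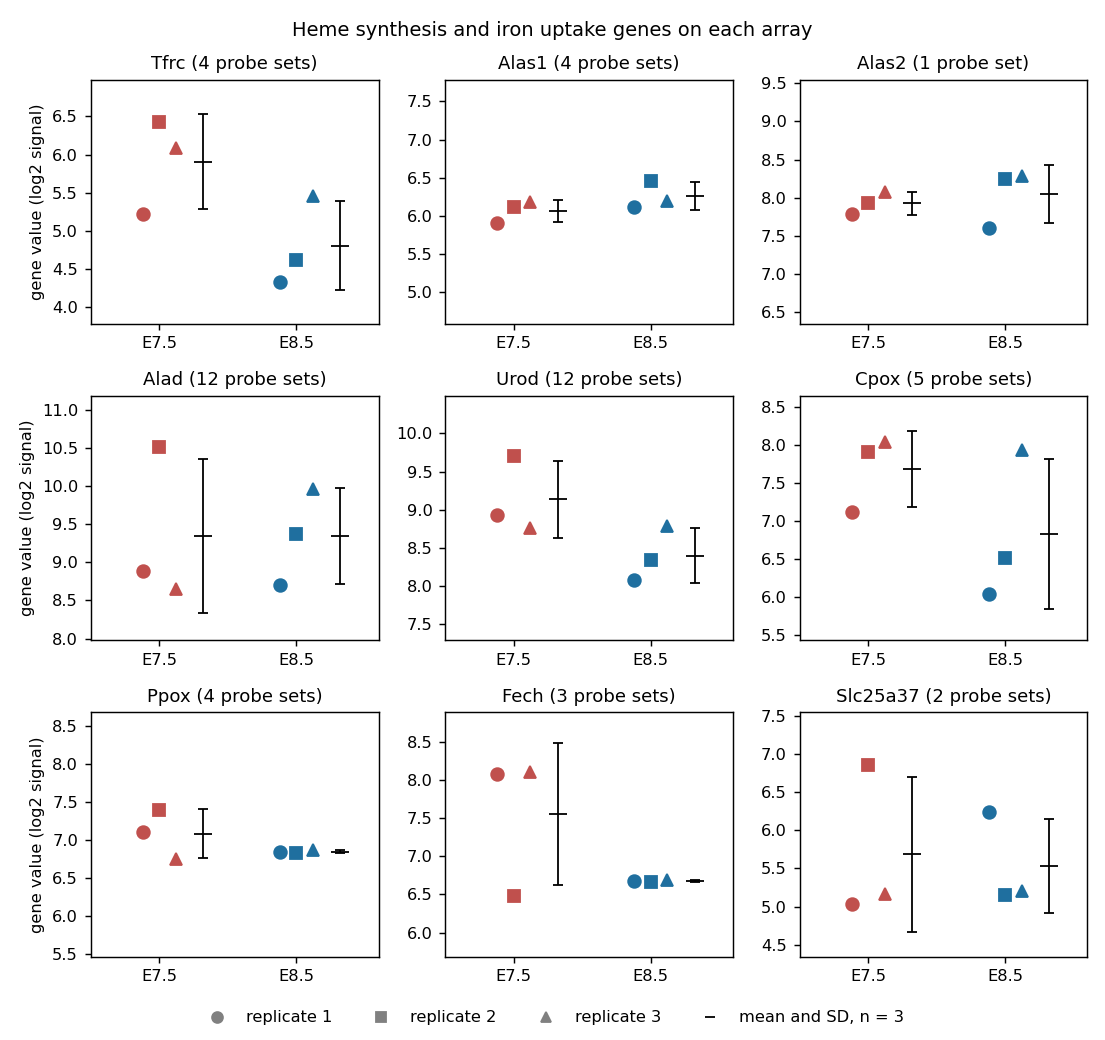
Gene value (log2 signal) of the 9 heme synthesis and iron uptake genes on each of the 3 E7.5 arrays (red) and 3 E8.5 arrays (blue), with marker shapes for the replicates and the mean and SD beside them; every panel spans the same number of log2 units. Tfrc, Urod and Cpox were lower on most E8.5 arrays, and Alas1 and Alas2 varied little. In all 9 genes the range of the arrays within at least 1 stage exceeded the difference between the stage means.

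Tfrc encodes the transferrin receptor, through which cells take up transferrin-bound iron. Its gene value was 5.22, 6.43 and 6.09 on E7.5 replicates 1, 2 and 3, and 4.34, 4.62 and 5.46 on the E8.5 replicates. The stages overlapped through a single pair, since E7.5 replicate 1 lay below E8.5 replicate 3. The mean went from 5.91 ± 0.62 to 4.81 ± 0.58 (SD, n = 3 arrays each), a log2 fold change of -1.10 with a standard error of 0.42 and a 95% confidence interval of -2.14 to -0.074, which did not pass the test (limma, adjusted p = 0.595). Leaving out E7.5 replicate 2 gave -0.85 and leaving out E8.5 replicate 1 gave -0.87, both under 2-fold. An exact two-sided permutation test gave p = 0.2, where 3 arrays against 3 cannot go below 0.1.

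All 4 Tfrc probe sets were lower on average at E8.5 (log2 fold change -1.95 to -0.50), but different arrays carried the high E7.5 signal. Probe set 5081556 read 9.20 on E7.5 replicate 1 and 4.52 on E7.5 replicate 2. Probe set 4688178 was highest on E7.5 replicate 2, at 8.62, and 5.23 on E7.5 replicate 1. Probe set 5479858 spread least at E7.5, from 5.15 to 5.66, and read 4.05, 4.95 and 5.51 at E8.5. When the mean of the 4 probe sets was taken in place of the median, the arrays of the stages no longer overlapped (6.11, 6.50 and 6.08 at E7.5, and 4.68, 4.42 and 5.25 at E8.5), with a log2 fold change of -1.45 that still did not pass the test (limma, adjusted p = 0.182).

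Slc25a37 encodes mitoferrin-1, the mitochondrial iron importer of erythroid cells. The gene value was 5.04, 6.85 and 5.16 at E7.5 and 6.25, 5.15 and 5.20 at E8.5. A single array stood above the other 2 in each stage, E7.5 replicate 2 and E8.5 replicate 1. Each of these arrays was raised by a different probe set. Probe set 5087878 read 7.34 on E7.5 replicate 2 and 3.80 to 4.80 on the other 5 arrays, and probe set 5306348 read 7.99 on E8.5 replicate 1 and 5.60 to 6.37 on the others. The log2 fold change was -0.15 (95% confidence interval -1.54 to 1.24, limma, adjusted p = 0.963) and turned to 0.43 without E7.5 replicate 2. The gene overlaps Gm27222, Gm31748 and Gm31896 in the annotation, and whether its signal comes in part from them was not tested.

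The first step, which condenses glycine and succinyl-CoA, is run by Alas1 in all cells and by Alas2 in erythroid cells. Alas1 read 5.91, 6.11 and 6.18 at E7.5 and 6.11, 6.46 and 6.20 at E8.5, so that the stages overlapped and all 6 values lay close together. Its log2 fold change of 0.19 had a 95% confidence interval of -0.25 to 0.64 (limma, adjusted p = 0.831), and the estimate was 0.091 without E8.5 replicate 2 and 0.11 without E7.5 replicate 1. With the mean over probe sets in place of the median, the arrays of E8.5 (5.93, 6.00 and 5.82) lay above those of E7.5 (5.51, 5.67 and 5.75), with a log2 fold change of 0.27 that did not pass the test (limma, adjusted p = 0.651). Of its 4 probe sets, 3 were higher at E8.5 and 1 was lower. Probe set 5194319 read 7.25, 7.32 and 7.92 at E7.5 and 8.88, 7.91 and 8.31 at E8.5, with a log2 fold change of 0.87 (95% confidence interval 0.030 to 1.71) that did not pass the test (limma, adjusted p = 0.705). The interval of the gene value lay within 2-fold, that of this probe set, the brightest of the 4, reached past it, and probe sets of above-median signal gave 0.54. Probe set 4868160 stayed between 2.41 and 2.94 on all arrays.

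Alas2 was measured by 1 probe set, which read 7.78, 7.93 and 8.08 at E7.5 and 7.61, 8.24 and 8.29 at E8.5. The lowest and the highest of the 6 values were both E8.5 arrays. The log2 fold change was 0.11 with a 95% confidence interval of -0.47 to 0.70 (limma, adjusted p = 0.937), again short of 2-fold on either side, and it was -0.0055 without E8.5 replicate 3. Alas2 shares its locus with Apex2 and Mir3620, and whether its probe set also reads these was not tested.

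**Figure D2:**
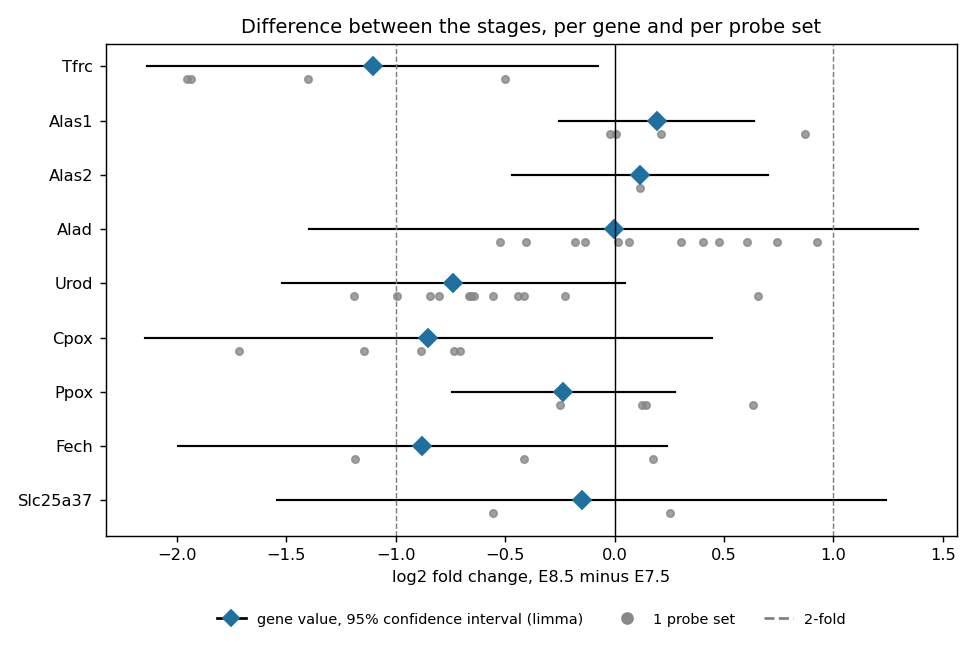
Log2 fold change (E8.5 minus E7.5) of each of the 9 genes, with the gene value as a diamond and its 95% confidence interval from limma as a bar, and each probe set as a grey point below it; dashed lines mark 2-fold. The intervals of the gene values of Alas1, Alas2 and Ppox stay within 2-fold, that of Tfrc lies wholly below 0, and all 4 Tfrc and all 5 Cpox probe sets lie below 0.

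Alad and Urod, the cytosolic enzymes that make porphobilinogen and that decarboxylate uroporphyrinogen to coproporphyrinogen, were each read by 12 probe sets. The Alad gene value was 8.89, 10.51 and 8.65 at E7.5 and 8.71, 9.37 and 9.96 at E8.5. E7.5 replicate 2 was the highest and E7.5 replicate 3 the lowest of the 6, so that the spread within E7.5 covered all of E8.5. The log2 fold change was -0.0042 with a 95% confidence interval of -1.39 to 1.39 (limma, adjusted p = 0.999), and it was 0.57 without E7.5 replicate 2 and 0.31 without E8.5 replicate 1. The highest array was E7.5 replicate 2 in 7 of the 12 probe sets and E8.5 replicate 3 in the other 5. In those 5 the E8.5 mean was higher by 0.41 to 0.92, and E8.5 replicate 3 read 10.06 to 11.86. In the first 7 the log2 fold change ran from -0.53 to 0.30.

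The Urod gene value was 8.93, 9.70 and 8.77 at E7.5 and 8.08, 8.34 and 8.78 at E8.5. The stages overlapped by 0.016 only, between E7.5 replicate 3 and E8.5 replicate 3. The mean went from 9.13 ± 0.50 to 8.40 ± 0.36 (SD, n = 3 arrays each), which is a log2 fold change of -0.74 with a standard error of 0.32 and a 95% confidence interval of -1.52 to 0.047, which did not pass the test (limma, adjusted p = 0.675, and p = 0.2 in the exact permutation test). Leaving out E7.5 replicate 2 gave -0.45.

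Of the 12 Urod probe sets, 11 were lower at E8.5 (log2 fold change -1.19 to -0.23) and 1 was higher (0.66). Probe set 4466585 read 9.55, 9.69 and 9.23 at E7.5 and 8.15, 8.22 and 9.12 at E8.5, and every E8.5 array lay below every E7.5 array. The same held for probe set 5582006, with 11.34, 11.72 and 11.03 at E7.5 and 9.94, 10.85 and 10.78 at E8.5. Neither passed the test over the 77669 probe sets with a single symbol (limma, adjusted p = 0.641 and 0.716). The higher probe set, 4652409, owed its mean to E8.5 replicate 1, at 7.54 against 5.46 to 6.22 on the other 5 arrays.

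Cpox, which turns coproporphyrinogen into protoporphyrinogen in the mitochondrion, read 7.12, 7.90 and 8.03 at E7.5 and 6.05, 6.51 and 7.93 at E8.5. E8.5 replicate 3 lay among the E7.5 arrays and the other E8.5 arrays lay below them all. The mean went from 7.68 ± 0.49 to 6.83 ± 0.98 (SD, n = 3 arrays each), which is a log2 fold change of -0.85 (95% confidence interval -2.15 to 0.45, limma, adjusted p = 0.751). Leaving out E8.5 replicate 3 gave -1.40, and leaving out E8.5 replicate 1 gave -0.46. All 5 Cpox probe sets were lower on average at E8.5 (log2 fold change -1.72 to -0.71). Probe set 4470892 differed most and read 7.95, 9.05 and 9.41 at E7.5 and 6.53, 6.51 and 8.23 at E8.5 (limma, adjusted p = 0.673). Cpox and Alas2, whose upstream windows are printed above, thus had log2 fold changes of -0.85 and 0.11.

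Ppox, the enzyme that oxidises protoporphyrinogen, read 7.10, 7.39 and 6.75 at E7.5 and 6.85, 6.83 and 6.87 at E8.5. As medians of 4 probe sets, the E8.5 arrays lay within 0.037 of each other and inside the range of the E7.5 arrays. The single probe sets spread more, and the brightest, 5274868, read 7.52, 7.78 and 8.83 at E8.5. The log2 fold change was -0.23 with a 95% confidence interval of -0.75 to 0.28 (limma, adjusted p = 0.822). Leaving out E7.5 replicate 2 gave -0.079, and leaving out E7.5 replicate 3 gave -0.40. Of the 4 probe sets 1 was lower and 3 were higher at E8.5, and the mean over probe sets gave a difference of 0.16. Its standard error was 0.44, against 0.21 for the median. The interval of the gene value lay within 2-fold, and that of probe set 5274868, at -1.55 to 1.83, reached past it. Probe set 5498200 read 7.80 on E7.5 replicate 2 against 3.43 and 4.12 on the other E7.5 arrays.

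Fech encodes ferrochelatase, which inserts iron into protoporphyrin to complete heme. The gene value was 8.08, 6.47 and 8.10 at E7.5 and 6.67, 6.66 and 6.69 at E8.5. E7.5 replicates 1 and 3 stood above all E8.5 arrays and E7.5 replicate 2 stood below them. The log2 fold change was -0.88 with a 95% confidence interval of -1.99 to 0.24 (limma, adjusted p = 0.722), and it was -1.42 without E7.5 replicate 2 (limma, adjusted p = 0.177). The 3 probe sets did not share this pattern. Probe set 5599679 read 8.08 to 8.86 on all 6 arrays, with a log2 fold change of 0.18. Probe set 5277988 read 8.26 on E7.5 replicate 1 and 6.47 to 6.69 elsewhere. Probe set 5530755 read 9.66 on E7.5 replicate 3 and 6.16 to 6.37 elsewhere. The lower gene value at E8.5 thus rested on 1 high array in each of 2 probe sets.

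**Figure D3:**
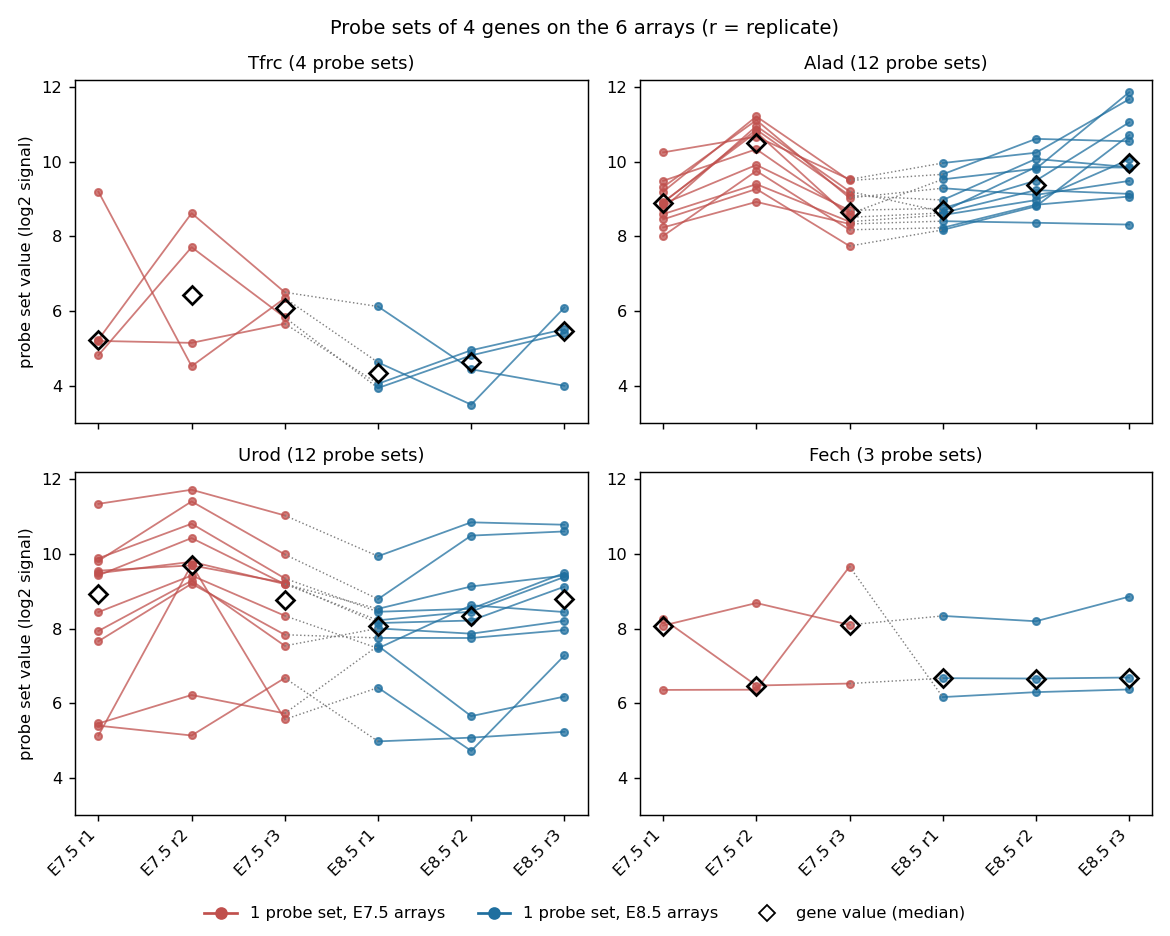
Log2 signal of each probe set of Tfrc, Alad, Urod and Fech on the 6 arrays, with lines joining the values of the same probe set (red E7.5, blue E8.5, dotted between stages) and diamonds for the gene value. On E7.5 replicate 2, 7 of 12 Alad and 10 of 12 Urod probe sets are at their highest, while the high Tfrc and Fech values come from different probe sets on different arrays; the replicates have no order.

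Over the 47 probe sets, 29 were lower on average at E8.5, against 51.3% of all probe sets, and 18 a higher one. None passed the test, where 0.0824% of all 77669 probe sets did. At an unadjusted p under 0.05 there were 3 (limma), the probe sets of Alas1, Urod and Cpox named above, against 6.99% of all probe sets. The arrays of the stages lay apart in 2 of the 47, both of Urod and both lower at E8.5, against 7.33% of all probe sets, and in none in the other direction (6.59% of all).

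Many of the high values in these genes came from single arrays. E7.5 replicate 2 gave the highest of the 6 values in 24 of the 47 probe sets (51.1%), where it did so in 15.7% of all probe sets. E8.5 replicate 1 gave the lowest in 17 of the 47 (36.2%, against 18.6%). The highest array exceeded the next by over 1 log2 unit in 22 of the 47 probe sets (46.8%), against 13.2% of all probe sets. E7.5 replicate 2 was that array in 11 of the 22 (50%), against 17.7% of such probe sets over all genes. Urod gave 10 and Alad 7 of the 24 probe sets that were highest on E7.5 replicate 2. Without this array, the median log2 fold change of the 9 genes was -0.079. Probe sets of a gene read the same RNA and are not independent, so that these shares are descriptions with no test. The median over all probe sets, which RMA sets nearly equal, lay between 6.98 and 7.07 on the 6 arrays and was highest on E7.5 replicate 2, and gene values correlated at 0.876 to 0.896 for arrays of the same stage and at 0.855 to 0.881 across stages.

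Among other genes of the pathway, 11 of 14 listed heme synthesis and porphyrin transport genes were measured. None passed the test, 7 log2 fold changes were negative and 4 positive, and their median was -0.11. Tspo, an outer mitochondrial membrane protein that binds porphyrins, read 9.27, 9.57 and 8.80 at E7.5 and 8.27, 7.95 and 7.18 at E8.5. Its stages did not overlap, and its log2 fold change of -1.42 did not pass the test (limma, adjusted p = 0.381). In 2 of the 11 genes, Tspo among them, every E8.5 array lay below every E7.5 array (7.12% of all genes), and in 0 above (7.1%).

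Of 24 listed genes of iron transport, storage and sensing, 21 were measured and none passed, with 14 negative and 7 positive log2 fold changes and a median of -0.20. In 5 of the 21 every E8.5 array lay below every E7.5 array, against the 7.12% of all genes: Trf, Steap3, Slc40a1, Fth1 and Pcbp2, of which Fth1 and Pcbp2 were named after their values were seen. Trf encodes transferrin itself, and read 6.08, 6.25 and 6.04 at E7.5 and 5.72, 5.37 and 5.60 at E8.5 (log2 fold change -0.56, limma, adjusted p = 0.516). Steap3, the reductase that acts on iron released from transferrin in endosomes, had a log2 fold change of -0.53 (limma, adjusted p = 0.496). Slc40a1, the iron exporter ferroportin, had one of -0.64 (limma, adjusted p = 0.479). Fth1, the ferritin heavy chain, differed least of the 5, at -0.20, and Pcbp2, an iron chaperone, gave -0.27.

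The 10 measured genes of heme export and breakdown had a median of -0.062, with 6 negative and 4 positive values, and none passed. The 9 measured of 13 genes of iron-sulfur cluster assembly had a median of -0.043, with 6 negative and 3 positive values, and none passed. Lyrm4, an accessory subunit of the cysteine desulfurase that supplies the sulfur, was the only gene of these 2 lists with an unadjusted p under 0.05, at a log2 fold change of -1.20 (limma, adjusted p = 0.401). Over all genes, 4.68% were lower at E8.5 at such a p. In a list of 9 measured oxygen response and mitochondrial genes the median was 0.026 and none passed.

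**Figure D4:**
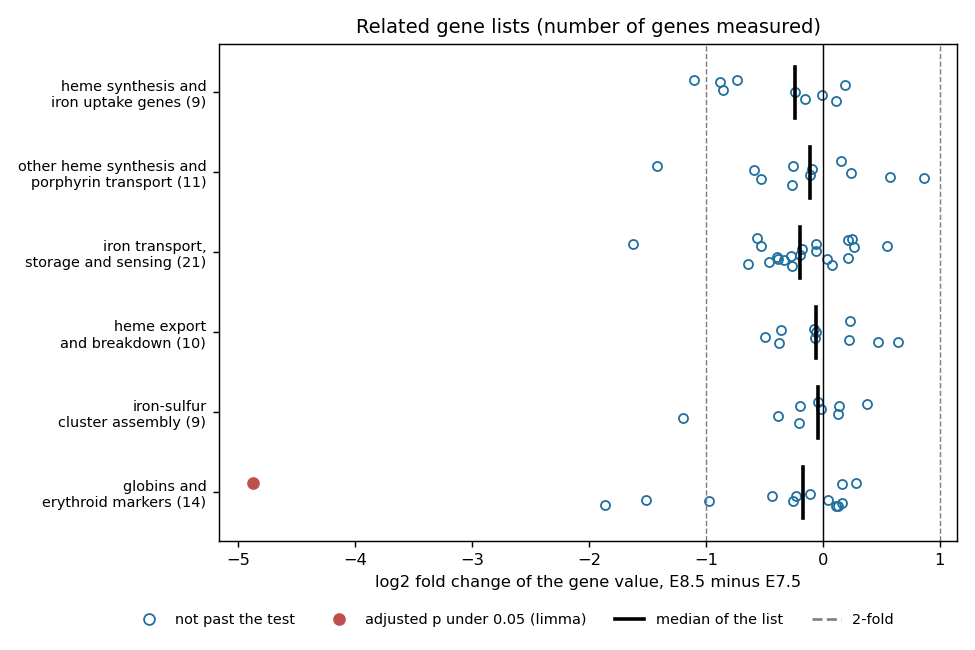
Log2 fold change (E8.5 minus E7.5) of each measured gene in 6 lists, with a bar at the list's median, dashed lines at 2-fold and a filled point for the gene with an adjusted p under 0.05. Hbb-bh1, at -4.87, is the only filled point, and the medians of the 6 lists lie between -0.23 and -0.043.

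Markers of erythroid cells, which make the most heme, were read beside these genes. Of 20 listed globins and erythroid markers 14 were measured, 1 passed the test and 13 did not, and the median log2 fold change was -0.17, with 8 negative and 6 positive values. The gene that fell was Hbb-bh1, an embryonic beta-like globin of primitive erythroid cells, which read 7.45, 7.53 and 8.96 at E7.5 and 3.02, 3.56 and 2.73 at E8.5 (log2 fold change -4.87, limma, adjusted p = 0.0462). Its stages did not overlap, and the paper also reports it at lower levels in the E8.5 cells. Its log2 fold change lay between -5.14 and -3.53 in the 12 alternatives that gave it a value. The call passed in only 4 of the 12, and leaving out an array also leaves fewer arrays to test. The adjusted p (limma) was 0.309 with the replicate block, 0.0566 for the brightest probe set and 0.0985 to 0.158 with any 1 array left out. The other genes of this list were named after their values were seen. Gata1, the erythroid transcription factor, read 7.80, 7.38 and 6.18 at E7.5 and 5.47, 4.98 and 5.32 at E8.5, with stages that did not overlap and a log2 fold change of -1.86 that did not pass (limma, adjusted p = 0.359). The paper lists Gata1, with Runx1 and Gata2, among blood transcription factors that differed between the populations. Hba-x, an embryonic alpha-like globin, had a log2 fold change of 0.041, and Slc4a1 and Ermap, which encode red cell membrane proteins, had 0.17 and 0.28. Epor gave -1.51 and Zfpm1 -0.97, both with overlapping stages. In the list 3 of 14 genes were over 2-fold lower at E8.5 (4.79% of all genes) and 0 higher (2.72%). In 4 of the 14 every E8.5 array lay below every E7.5 array (7.12% of all genes), and in 0 above (7.1%). The mean level of the 14 markers ran from 6.82 to 7.22 over the E7.5 arrays and from 6.34 to 6.48 over the E8.5 arrays. The mean difference was -0.67. Without Hbb-bh1 the ranges overlapped, at 6.66 to 7.21 and 6.61 to 6.75, with a mean difference of -0.34. Without Gata1 as well they were 6.70 to 7.16 and 6.72 to 6.86, with a mean difference of -0.22. These 2 genes were left out because they were lower at E8.5 at an unadjusted p under 0.05 (limma). A smaller gap was therefore bound to follow, and nothing is concluded from it. No value of the arrays marks a gene as absent. The part of erythroid cells in the lower Tfrc, Urod and Cpox signals was not tested.

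Endothelial markers, which check the labelled population, were all measured (10 of 10), with 7 positive and 3 negative log2 fold changes, a median of 0.39 and none past the test. Cldn5, a tight junction protein, had a log2 fold change of 1.92 (limma, adjusted p = 0.136), Emcn, an endothelial sialomucin, one of 2.58 (limma, adjusted p = 0.415), and Tie1, a receptor kinase, one of 1.27 (limma, adjusted p = 0.592). In these 3 of the 10 every E8.5 array lay above every E7.5 array (7.1% of all genes). In 1 of the 10, Etv2, every E8.5 array lay below (7.12%). Etv2, Kdr and Itga2b, the genes of the reporter and the gate, gave -0.49, -0.73 and -0.52, and none passed. Of these, the paper reports Etv2 as lower in the E8.5 cells. Among markers of other cells, none of the measured genes passed, which were 4 of megakaryocytes, 6 of leukocytes, 10 of visceral endoderm and 8 of heart and mesoderm. At an unadjusted p under 0.05 these lists held Coro1a, an actin regulator of leukocytes, at -1.12 and Myl7, an atrial myosin light chain, at -2.55. They also held T, the mesoderm factor Brachyury, at -2.01, which the paper too reports as lower at E8.5. All were lower at E8.5, as 4.68% of all genes were at such a p. The part of these markers in the results for heme and iron genes was not tested.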

How the data were processed

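ETV2::GFP+FLK1+CD41- cells were sorted at E7.5 and E8.5, with 50 cells and 1 Affymetrix mouse exon array (Exon 1.0 ST) per replicate after SuperAmp amplification. Values were deposited by the authors on the log2 scale for 90788 probe sets, after RMA; the submitters' processing notes also name Affymetrix Power Tools. The sources used here give neither tool versions nor the rule that kept these probe sets. The RMA step gives the arrays equal distributions, which hides a change in total RNA, and compresses the differences of dim probe sets. The table has no detection calls. The paper calls the replicates biological, but no source used here ties them to separate litters, so p-values cover only the spread between these arrays, which may be technical.

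By the array annotation, 77669 probe sets had 1 symbol, 654 had several and 12465 had none listed; only the first were used. The median over all probe sets of a gene gave values for 16523 genes, which had a median of 3 probe sets each. The 2 stages were compared with limma 3.58.1 under R 4.3.3 (lmFit, eBayes, no filter), over genes and again over probe sets. The fit was first run on simulated data with known changes. Recovery was required there only for changes far larger than those of the 9 genes, so the run does not show that changes of their size would be found. Exact two-sided permutation tests took 3 arrays against 3. All 9 genes were to be named; of the other lists, genes with an adjusted p under 0.05 or, failing that, up to 4 per direction with the smallest unadjusted p under 0.05, with Etv2, Kdr, Itga2b and Hbb-bh1. The members and lists were chosen with earlier results of these data known. Listed symbols were matched also through synonyms. No probe set positions were used, so exons were not assigned. Alternatives covered the normalization, the value per gene, filters on dim signal, the variance model, the replicate block, thresholds and leaving out each array. Those for Hbb-bh1, and the erythroid mean without single markers, were added after seeing the data.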

Additional observations from a re-analysis of the deposited data

How the results depend on the processing

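None of the 9 genes passed the threshold under any of the alternatives run, and none of their probe sets did. Of 121 values of single genes under alternatives, 105 kept their direction and 16 changed it, and the lowest adjusted p was 0.177 (limma, Fech without E7.5 replicate 2). The 105 include values that could not change direction. The variance model, the replicate block and the filter on genes of above-median signal leave each log2 fold change as it was. The same holds for Alas2, with 1 probe set, under other summaries of a gene. Tfrc, Urod, Cpox and Alas1 changed direction in none. Alad was 0.0026 with each array's median subtracted, 0.13 after quantile normalization, 0.19 as the mean over probe sets, 0.48 for the brightest probe set, and -0.35 (without E7.5 replicate 3) to 0.57 (without E7.5 replicate 2) when each array was left out, with 0.31 without E8.5 replicate 1. Ppox was 0.16 as the mean, 0.14 for the brightest and 0.14 for probe sets of above-median signal, and -0.40 to -0.079 when each array was left out. Alas1 ran from 0.091 to 0.27 when each array was left out and was 0.87 for the brightest. Fech was 0.18 for the brightest and 0.18 for probe sets of above-median signal. Slc25a37 was 0.25 for the brightest, and -0.51 (without E8.5 replicate 1) to 0.43 (without E7.5 replicate 2) when each array was left out, with 0.040 and 0.014 when E8.5 replicates 2 and 3 were. Alas2 ran from -0.0055 (without E8.5 replicate 3) to 0.33 (without E8.5 replicate 1). The causes were not tested.

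The median of the 9 genes was 0.14 for the brightest probe set and 0.11 for probe sets of above-median signal, which 7 of the 9 had, and ran from -0.47 to -0.079 when each array was left out. The count over 2-fold was 2 as the mean and 2 for the brightest (Tfrc and Cpox), 0 among genes of above-median signal, which left out Tfrc, 4 at 1.5-fold, and 0 to 2 when each array was left out (0 without E8.5 replicate 1, and Fech in place of Tfrc without E7.5 replicate 2). Over all genes, the 18 past the threshold became 11 as the mean, 9 for the brightest, 0 for probe sets and 0 for genes of above-median signal, 41 at a threshold of 0.1, and 0 to 12 when each array was left out. With the replicate block the count was 0. The labels tie the replicate numbers to no litter or day. Deviations of same-numbered arrays correlated at 0.0074, -0.0083 and -0.00082 over genes. A correlation over all genes cannot exclude an effect on some of them, so whether the numbers pair the arrays is unknown.

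Without detection calls or counts, signal over background is unknown, and 3 arrays per stage limit the precision. For 6 of the 9 genes the 95% confidence interval of the gene value reached past 2-fold. For Alas1 and Ppox that of the brightest probe set did so.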
